A study of Caenorhabditis elegans with 2 samples.

Results

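The mitochondrial genome of Caenorhabditis elegans encodes a small set of respiratory chain subunits, and 10 of these genes are described here: CYTB, ND5, COX3, ND1, ND4, COX2, ND2, COX1, ATP6 and ND3. They were taken as a named list and matched by RefSeq symbol in the WBcel235 assembly, where all 10 were found among 12 protein-coding genes of chromosome M and 19983 protein-coding genes in all. The other mitochondrial ones, ND4L and ND6, were not on the list. The calls came from chromatin immunoprecipitation followed by sequencing of whole young adult hermaphrodites of strain OP385, collected 65 hours after synchronization as starved L1 larvae. This strain carries the unc-119(tm4063) mutation and the inserted transgene wgIs385, from which F55B11.4 is made with a C-terminal GFP-FLAG tag, and an anti-GFP antibody was used. All animals shared this genotype. There was 1 group with 2 biological replicates and no untagged or control library was analysed here, so no value compares conditions and no test over samples was possible. How much mitochondrial DNA the libraries held was not measured.

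The genes encode membrane subunits of the machinery that makes ATP in mitochondria. ND genes encode parts of NADH dehydrogenase (complex I), CYTB encodes cytochrome b of complex III, COX genes encode the core of cytochrome c oxidase (complex IV), and ATP6 encodes a subunit of the proton channel of ATP synthase. Each cell holds many copies of this circular DNA. In worms all of its genes lie on the same strand, with tRNA genes between most of them, and they are transcribed and translated inside the organelle, apart from the nuclear chromosomes.

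A call is an interval reported by the authors' peak caller, and its summit is the single base given as its strongest point. Each call has a signal value, a unitless score on a scale that is not stated, so values and ranks were compared only within a list. On build ce11 the replicate 1 list held 21050 calls, of which 20 were mitochondrial, and the replicate 2 list held 14257, of which 21 were mitochondrial. The list from pooled reads held 670 calls. Its 18 mitochondrial calls were the same 18, in interval and summit, as those of the optimal set. The authors derived that set with the irreproducible discovery rate (IDR) procedure, and it held 48 calls. The pooled list was deposited as peaks and background, given as input to this procedure. The replicate lists are permissive as well, so a call in these lists may be background. Each call also has a deposited q-value, and many of these were weak. For the 18 optimal mitochondrial calls on ce11 it ran from 0.0909 to 0.294, with 6 at the lowest value. For the 20 of replicate 1 it ran from 0.0667 to 0.294, with 8 at the lowest. For the 21 of replicate 2 it was 0.0992 throughout. Read depth was unknown.

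The sequences at the 3 calls that ranked highest in every list are shown first, followed by the end of ATP6, whose nearest optimal summit fell just outside the gene, and by the centre of the AT-rich control region, which held no call. Each is 101 bases of the plus strand of chromosome M, 5′ to 3′, from the RefSeq WBcel235 (ce11) sequence, with no annotated untranslated region. Capitals mark, in the first 3, the span from the lowest to the highest of the replicate 1, replicate 2 and pooled summits, and in the fourth the last bases of ATP6. The fifth has no capitals.
CYTB, chrM:4660-4760: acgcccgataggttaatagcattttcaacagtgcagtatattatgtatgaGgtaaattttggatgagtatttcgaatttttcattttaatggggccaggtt
ND5, chrM:12403-12503: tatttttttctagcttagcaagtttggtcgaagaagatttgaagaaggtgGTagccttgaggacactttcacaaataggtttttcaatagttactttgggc
COX3, chrM:5979-6079: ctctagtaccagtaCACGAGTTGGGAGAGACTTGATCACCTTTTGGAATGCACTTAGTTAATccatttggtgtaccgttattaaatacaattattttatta
End of ATP6, chrM:3193-3293: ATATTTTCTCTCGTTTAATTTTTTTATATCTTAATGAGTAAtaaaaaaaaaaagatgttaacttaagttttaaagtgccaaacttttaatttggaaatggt
AT-rich region, chrM:13511-13611: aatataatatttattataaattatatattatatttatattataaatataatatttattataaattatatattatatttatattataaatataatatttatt
The span of summits was 1 base in CYTB, 2 bases in ND5 and 48 bases in COX3. The CYTB and COX3 windows each hold 35 G or C bases of 101 and the ND5 window 37, while the window at the end of ATP6 holds 20 and the AT-rich window 0.

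Calls reached nearly all of the 10 genes. In the optimal set 9 of 10 held at least 1 summit, against 0.120% of all protein-coding genes (24 of 19983, a count that includes these 9). The exception was ATP6. The pooled list gave the same 9 of 10, against 2.2% of all genes. Replicate 1 had a summit in 9 of 10, again all but ATP6, against 42.0% of all genes, and replicate 2 in 10 of 10, against 32.5%. These genes are short, with a median length of 862.5 bp against 2005 bp over all protein-coding genes. In each replicate 16 summits lay in the 10 genes. Of these, 15 in replicate 1 and 14 in replicate 2 had a higher signal value than any nuclear call of the same list. The strongest nuclear call scored 40.3 and 65.3. Among all mitochondrial calls, 19 of 20 in replicate 1 and 18 of 21 in replicate 2 did so. This was therefore not particular to the 10 genes.

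**Figure D1:**
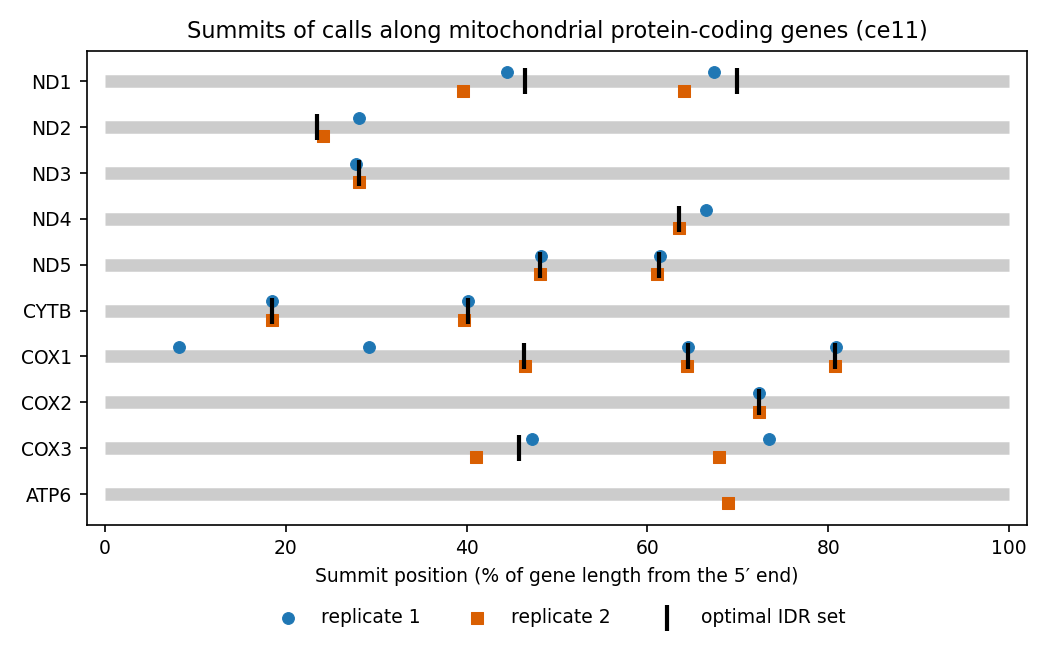
Summit positions along each of the 10 genes, as percent of gene length from the 5′ end, on build ce11. Grey bars are the genes, circles are summits of replicate 1, squares of replicate 2 and vertical ticks those of the optimal set. CYTB, ND5, COX2 and ND3 have all symbols stacked at the same places, while COX1 has summits of single replicates and ATP6 has 1 summit, from replicate 2.

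CYTB (chromosome M, 4504 to 5616, plus strand), the only mitochondrial gene of complex III, held the top call of every list. Its signal value was 937 in replicate 1, 1229 in replicate 2 and 2171 in the pooled list, each at rank 1 of the whole list. The summit was base 4710 in all 3 lists, 18.5% along the gene from its 5′ end. A weaker call lay further in, at 4950 in replicate 1 and 4946 in replicate 2, with signal values of 473 and 84.1. Its place differed by 4 bp between the replicates, but its rank among mitochondrial calls was 4 in replicate 1 and 16 in replicate 2. In replicate 1 both CYTB calls were summits of the same interval, 4443 to 5005. In replicate 2 they had separate, overlapping intervals, 4532 to 4915 and 4711 to 5180. The rest of the gene, from 5181 on, was covered by no call of any ce11 list.

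In complex I, ND5 (11691 to 13274), which encodes 1 of the large proton-pumping subunits, was next in every list. It scored 701 in replicate 1, 877 in replicate 2 and 1567 in the pooled list, at rank 2 each time. The summits were 12454, 12453 and 12453, close to the middle of the gene (48.1% along it in the pooled list). A weaker call followed at 12662 in replicate 1 and 12657 in replicate 2, with signal values of 104 and 120 and rank 15 in both. The intervals of these calls covered only 40.3% of ND5. A stretch of 578 bp in its 5′ part, and its 3′ end from base 12907 on, held none.

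ND1 (1763 to 2638), the subunit next to the quinone-binding site of the complex, had 2 calls in each list. The stronger scored 442 at summit 2152 in replicate 1 and 364 at 2110 in replicate 2, ranks 5 and 4 of the mitochondrial calls. The weaker scored 148 at 2352 and 191 at 2323. Each of these differed by under 50 bp between replicates, and in each case replicate 2 lay nearer the 5′ end. The pooled summits, 2170 and 2375, lay beyond both replicates in the other direction.

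ND4 (6506 to 7735), another proton-pumping subunit, had 1 call, with 298 at summit 7323 in replicate 1 and 358 at 7286 in replicate 2. Its rank was 8 in replicate 1 and 5 in replicate 2. ND2 (3418 to 4266), also of the pumping arm, scored 194 at 3656 and 134 at 3623, ranks 11 and 13. Both genes thus had summits within 37 bp of each other in the replicates. ND3 (11356 to 11691), the shortest of the 10 at 336 bp, had the lowest best score of the genes called in both replicates. Its call scored 42.7 in replicate 1, only just above the strongest nuclear call of that list, and 79.1 in replicate 2. The summits were 11449 and 11450, so the place differed by 1 bp although the call was weak.

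The 3 COX genes differed from each other in how replicates placed their calls. COX2 (9649 to 10344), which encodes the subunit that accepts electrons from cytochrome c, had its only summit at 10152 in both replicates and in the pooled list, 72.4% along the gene. It scored 378 at rank 6 in replicate 1 and 202 at rank 9 in replicate 2. COX3 (5678 to 6445) had rank 3 in every list, with 526 in replicate 1, 509 in replicate 2 and 994 in the pooled list, but its summits were spread over 6040, 5993 and 6029. It also had a weaker call in each replicate, of 52.3 at 6241 and 71.0 at 6199, which had no counterpart in the optimal set. There the only COX3 interval was 130 bp wide, against a usual width of 470 bp.

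COX1 (7845 to 9422), the catalytic subunit, had the most calls. Replicate 1 had 4 summits there, at 9120, 8862, 7975 and 8305, with signal values of 201, 119, 44.2 and 36.0. Replicate 2 had 3, at 8577, 8861 and 9119, with 208, 58.7 and 52.4. At 2 places the replicates differed by 1 bp. The strongest call of replicate 2, at 8577, had no summit of replicate 1 nearer than 272 bp, although the optimal set holds a call at 8576. The strongest calls of the replicates were thus 543 bp apart, and the COX1 calls differed in their order of strength between them. The gene was the only one besides ND3 in which every base lay in a call of some ce11 list.

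ATP6 (2634 to 3233) held a summit only in replicate 2, at 3047 with a signal value of 195, rank 10 of the mitochondrial calls. The call nearest to its 3′ end lay outside it in every list. In replicate 1 that summit was 3272, in the tRNA-Lys gene 39 bp beyond ATP6, with 352. In replicate 2 it was 3340, in the neighbouring tRNA-Leu gene 107 bp beyond, with 205. The pooled and optimal summit, 3243, fell between ATP6 and tRNA-Lys, 10 bp beyond the stop of ATP6, with 517. This is the junction printed above. The optimal interval, 3008 to 3477, did overlap ATP6, so the gene counts as reached by interval and not by summit.

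**Figure D2:**
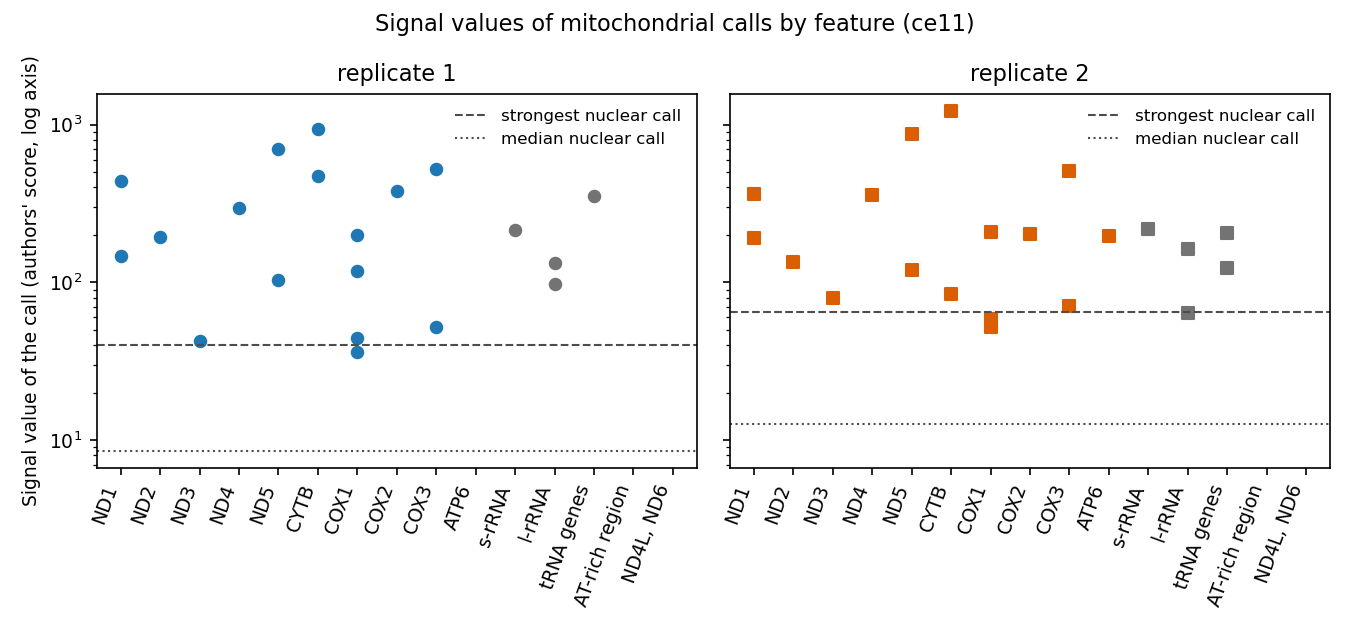
Signal value of every mitochondrial call on build ce11, on a log axis, by the feature that holds its summit, in replicate 1 (left) and replicate 2 (right). Coloured symbols are the 10 genes and grey ones rRNA and tRNA genes; the dashed line is the strongest nuclear call of that list and the dotted line the median nuclear call. CYTB, ND5 and COX3 stand highest in both panels, and the AT-rich region, ND4L and ND6 have no point.

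Across the 9 genes called in both replicates, the strongest signal value per gene had a Spearman correlation of 0.95 between replicates, given as a description. The points share the control library against which, per the deposited records, both replicates were called, and the same small genome. CYTB, ND5 and COX3 took ranks 1, 2 and 3 in both. Ranked among the 9 genes alone, only COX2, ND4 and COX1 changed order, with COX2 above the other pair in replicate 1 and below it in replicate 2. Ranks among all mitochondrial calls also depend on calls elsewhere. By those, ND1, ND4, COX1 and ND3 ranked higher in replicate 2 than in replicate 1, and COX2 and ND2 lower.

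The replicates placed most of their calls close together. In 8 of the 10 genes the strongest calls of the replicates had summits within 100 bp, and in all 8 within 50 bp. COX1 was apart by 543 bp and ATP6 had no replicate 1 summit. Counted over calls, 14 of the 16 summits of replicate 1 in these genes lay within 100 bp of a replicate 2 summit (87.5%), while 33.9% of all positions in the 10 genes did. Within 5 bp the count was 8 of 16 (50%), against 1.83% of positions. From replicate 2 to replicate 1 the counts were the same, 14 and 8 of 16. Most summits are the centres of intervals of 1 usual width per list, so a summit's place is then that of its interval. Elsewhere on the mitochondrial genome 3 of 4 summits of replicate 1 and 3 of 5 of replicate 2 lay within 100 bp of a summit of the other replicate.

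**Figure D3:**
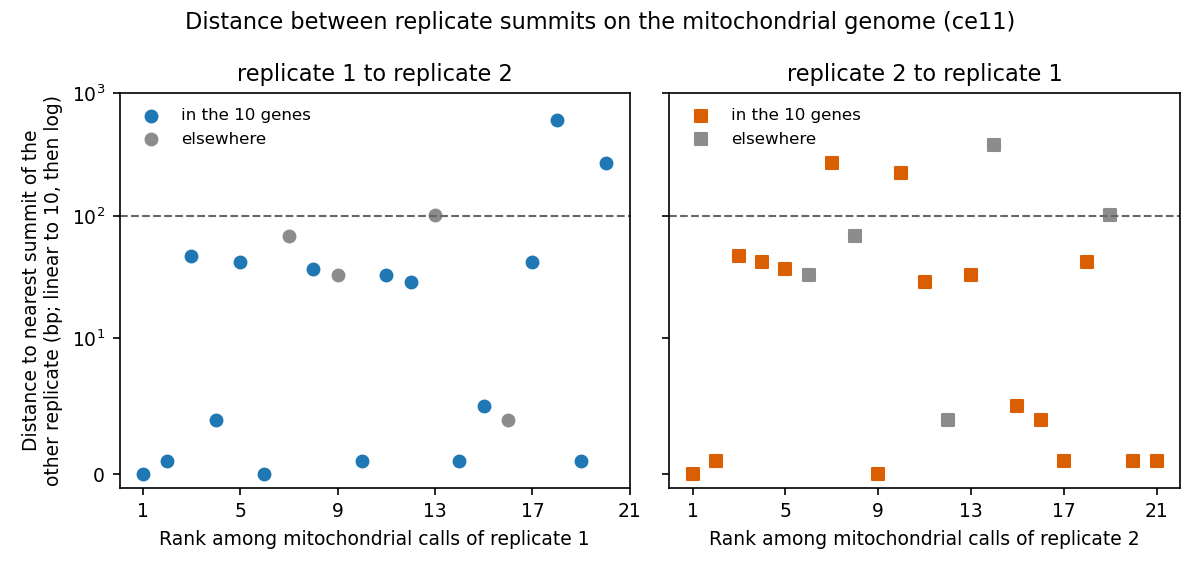
Distance in bp from each mitochondrial summit to the nearest summit of the other replicate (vertical axis, linear to 10 and logarithmic above), against the rank of the call among mitochondrial calls of its own replicate. Coloured symbols lie in the 10 genes, grey ones elsewhere, and the dashed line is 100 bp. In each panel 14 of 16 coloured symbols lie under the line, and the 2 above it are COX1 calls in replicate 1 and a COX1 and the ATP6 call in replicate 2.

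Neighbouring summits in CYTB, ND5, ND1 and COX3 had similar spacings in both replicates, shorter than the usual interval, which spanned 490 bp in the first list and 470 bp in the other. The pair in CYTB was 240 bp apart in replicate 1 and 236 bp in replicate 2, and that in ND5 208 and 204 bp. For ND1 the values were 200 and 213 bp, and for COX3 201 and 206 bp. The pair in the large-subunit rRNA gene was 302 bp apart in replicate 1 and 205 bp in replicate 2. In COX1 the steps ranged from 258 to 557 bp in replicate 1 and were 284 and 258 bp in replicate 2. No neighbouring summits within a gene were closer than 200 bp in these lists, and several of the spacings lie near that value. Whether the peak caller sets such a minimum was not tested.

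The builds gave the same mitochondrial calls in the optimal set and differed in replicate 1. The whole optimal set held 48 calls on ce11 and 46 on ce10. Summit numbers on chromosome M were compared as deposited, with no conversion of coordinates. In the optimal set all 18 mitochondrial calls, 14 of them in the 10 genes, had the same summit number on ce10 as on ce11, with signal values that differed by at most 0.00966%. The replicate 2 lists likewise matched at all 16 summits in the genes. In replicate 1, whose ce10 intervals mostly had a width of 476 bp in place of 490 bp, 6 of 16 summits had the same number and 14 of 16 had a ce10 summit within 50 bp. Both exceptions were in COX1. At 8862 the nearest ce10 summit was 248 bp away, and at 8305 it was 119 bp away. On ce10 replicate 1 had 15 summits in the 10 genes in place of 16, with 3 in COX1 in place of 4, and a weak additional call in the small-subunit rRNA gene that scored 9.64. Signal values of its weaker calls also differed between builds. The weaker ND5 call scored 104 on ce11 and 140 on ce10, ranks 15 and 12, and ND3 42.7 and 55.4, ranks 19 and 17. The weaker ND1 call scored 148 and 118, ranks 12 and 14. CYTB, ND5, COX3 and COX2 kept the same strongest summit and the same rank on both builds.

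The rRNA genes and the AT-rich control region were the comparison within the same molecule. The 10 genes cover 69.8% of the 13794 bp, and they held 14 of the 18 optimal summits (77.8%, exact Clopper-Pearson 95% interval 52.4 to 93.6), an interval that includes their share of the length. The corresponding counts were 16 of 20 in replicate 1 (80%, 56.3 to 94.3) and 16 of 21 in replicate 2 (76.2%, 52.8 to 91.8). These confidence intervals cover the counting of calls only and treat calls as independent, although neighbouring calls can overlap. With optimal summits within 500 bp counted once, 9 of 12 (75%) lay in the 10 genes. The density was 1.45 optimal summits per kb in the 10 genes and 1.82 per kb in the 2 rRNA genes. The small-subunit rRNA gene (898 to 1594) had 1 call, which scored 216 in replicate 1 and 217 in replicate 2, at ranks 9 and 6. The large-subunit rRNA gene (10403 to 11355) had 2 calls in each replicate, which scored 133 and 98.1 in replicate 1 and 163 and 64.1 in replicate 2. All of these were below the best calls of CYTB, ND5, COX3, ND1 and ND4 in the same list. They were above those of ND3 with the exception of the 64.1 in replicate 2. The small-subunit call was also above the best calls of COX1 and ND2 in both replicates, and of COX2 and ATP6 in replicate 2. The stronger large-subunit call was above that of ND2 in replicate 2.

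The AT-rich region (13329 to 13794), annotated in RefSeq and known as the control region, held no summit in any of the 8 lists, and neither did ND4L or ND6. No interval of any list touched them. They lie in an uncalled stretch of 1800 bp, from 12907 across the ends of the linear reference to 912, which is 13.0% of the molecule and also holds 5 tRNA genes and the 3′ end of ND5. This stretch had a GC content of 15.8%, against 23.8% for the whole mitochondrial genome, and the AT-rich region alone had 6.87%. Of 13763 words of 32 bases in the mitochondrial genome, 19 also occur on a nuclear chromosome. CYTB had 0.277% of such words, the AT-rich region 3.68% and the other 9 genes none. Words that recur within the mitochondrial genome itself made up 44.1% of the AT-rich region. The 10 genes and the rRNA genes had none of these. Whether repeated sequence has a part in the absence of calls from the AT-rich region was not tested.

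Within the genes, the called parts were richer in G and C. The union of all ce11 lists left 8 genes partly uncovered, and in 8 of these 8 the covered part had the higher GC content, by a median of 4.27 percentage points. In ATP6 the covered part had 26.8% GC and the uncovered part 17.4%, and in ND5 26.5% and 20.2%. CYTB showed 27.6% and 24.1%, and ND1, with a smaller contrast, 25.6% and 23.4%. By single lists the covered part was higher in 7 of 9 genes in replicate 1, in 9 of 10 in replicate 2 and in 7 of 10 in the pooled list. The large-subunit rRNA gene went the same way (22.1% and 17.4%) and the small-subunit rRNA gene the other way (25.9% and 27.2%). Windows of 100 bp to either side of the 14 optimal summits had 28.1% GC on average, 2.74 ± 3.59 points above their whole gene (SD over 14 summits, which share genes), and 10 of 14 were higher. The strength of a call did not follow this closely: the Spearman correlation of signal value with window GC was 0.247 over the 14 optimal calls, 0.113 over 16 in replicate 1 and 0.0384 over 16 in replicate 2. The window of the strongest call, in CYTB, had 24.9% GC. Whether base composition has a part in where calls fall was not tested.

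**Figure D4:**
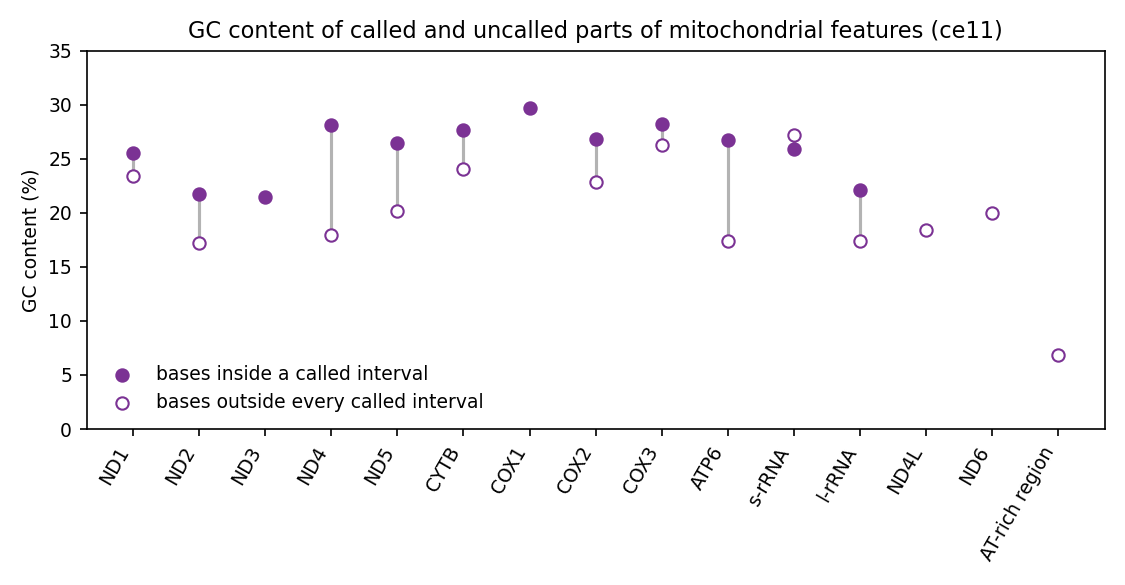
GC content in percent of the bases inside (filled) and outside (open) the called intervals of all ce11 lists, for the 10 genes, the 2 rRNA genes, ND4L, ND6 and the AT-rich region. Filled points lie above open ones in the 8 of the 10 genes that have both and in l-rRNA, below in s-rRNA, and the AT-rich region, with no call, is lowest at 6.87%.

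The respiratory chain is completed by nuclear genes, and 45 of these were examined in the same lists. None held an optimal summit, which is near the 0.120% of all protein-coding genes that did (24 of 19983, 9 of them mitochondrial). This count therefore does not set the nuclear genes apart from other genes. In the pooled list 2 of 45 did (4.44% against 2.2%). They were ucr-2.1, of the complex III core proteins, with a signal value of 32.7, and atp-1, the alpha subunit of ATP synthase, with 29.1. The median nuclear call of the pooled list scored 31.4, and both scores were under the weakest mitochondrial call of that list, 68.0 in ND1. Replicate 1 had a summit in 13 of 45 (28.9% against 42.0%) and replicate 2 in 10 of 45 (22.2% against 32.5%). These genes have a median length of 1279 bp, shorter than the 2005 bp of all protein-coding genes. By complex, the optimal count was 0 of 14 for complex I, 0 of 5 for complex II, 0 of 9 for complex III with cytochrome c, 0 of 7 for complex IV and 0 of 10 for complex V. In the replicate lists complex III with cytochrome c stood above the share of all genes, unlike the 45 as a whole, with 6 of 9 in replicate 1 (66.7%) and 5 of 9 in replicate 2 (55.6%). The core protein genes ucr-2.1, ucr-2.2 and ucr-2.3 had summits in both replicates, with best signal values of 9.19, 11.5 and 11.5 in replicate 1 and 23.3, 13.3 and 21.9 in replicate 2. All of these were under the weakest mitochondrial call of the same list. The genes ucr-2.1, ucr-2.2 and ucr-2.3 are 2784, 4242 and 1599 bp long. The complex III gene ucr-1 had 2 summits in replicate 1 and 0 in replicate 2. In complex I, gas-1 and nuo-5 also had summits in both replicates, and they are 3612 and 8067 bp long. The other complexes had 3, 1, 2 and 1 genes with a summit in replicate 1 and 4, 0, 0 and 1 in replicate 2, in the order I, II, IV and V. With so few genes in each complex, these shares are descriptions only.

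Of 5 genes that maintain or transcribe mitochondrial DNA, none had an optimal or pooled summit. In the replicate lists 3 of 5 had one in replicate 1 (60% against 42.0%) and 2 of 5 in replicate 2 (40% against 32.5%). The polymerase gene polg-1, with 4 summits in replicate 1 and 3 in replicate 2, and the helicase gene twnk-1, with 1 and 2, were called in both, and the RNA polymerase gene rpom-1 in replicate 1 alone. These 3 genes are long, at 10174, 6129 and 13824 bp. The best polg-1 call scored 13.0 in replicate 1 and 14.5 in replicate 2, and the best twnk-1 call 7.32 and 14.2.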

How the data were processed

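The 2 immunoprecipitated libraries of 1 group were used. Per the deposited records, each permissive list was called from the alignments of a library and 1 control library shared by both replicates, and the optimal IDR set was derived from these lists. For the aligner, the peak caller and its thresholds: not given in the sources used here. The deposited score of each call is the authors' signal value; the −log10 of a q-value is also deposited, and it is the same for all 21 mitochondrial calls of replicate 2, so calls were ranked by signal value. The summit offsets are the authors'. Summits (start plus offset) were placed in RefSeq WBcel235 genes with Python 3.11.15, pandas 2.3.3 and scipy 1.17.1, after a check on simulated calls. The chromosome M numbers of ce10 were read as given. With 1 group of 2 replicates no test was run. The 10 genes, the nuclear lists and the rule for names were chosen with earlier results of these data known. That rule names all 10 genes, ND4L, ND6, rRNA genes, the AT-rich region and listed nuclear genes with a pooled or optimal summit. The genes polg-1, twnk-1, rpom-1, ucr-1, ucr-2.2, ucr-2.3, gas-1 and nuo-5 were named after their values were seen.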

Additional observations from a re-analysis of the deposited data

How the results depend on the processing

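Of 50 alternatives over 9 results, 44 moved the value by no more than its limit (1.5 times for a count, its interval for a share, the spread between replicates for the GC difference) and 6 moved it further. With only calls of q under 0.1, 6 of 6 mitochondrial summits lay in the 10 genes (100%) and 0 in the rRNA genes and AT-rich region; fewer calls are left there by construction. The number of genes with an optimal summit ranged from 6 (q under 0.1) to 10 (interval overlap, or within 50 bp of the gene, the latter chosen after seeing the data), and was 9 without replicate 2 and 10 without replicate 1, each taken as the 48 strongest calls of the remaining replicate. The GC difference was 5.14 points with 50 bp windows, 1.81 with 250 bp, and 2.59 to 2.75 without either replicate. Nuclear respiratory chain genes numbered 2 in the pooled list. The cause of these was not tested. Ensembl boundaries, also chosen after seeing the data, left 9 genes and 77.8%. No paired analysis was possible because there is 1 group. Without read counts, the depth behind each call is unknown.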
